A study of Mus musculus with 8 samples.

Results

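The bicistronic mitochondrial mRNA of Nd4l and Nd4 was followed in liver mitochondria from mice aged 12 weeks (12 W) or 65 weeks (65 W). Its members are the rows of the count table whose Ensembl transcript belongs to mt-Nd4l (ENSMUST00000084013.1) or mt-Nd4 (ENSMUST00000082414.1), 2 of 8688 transcripts and 2 of the 13 mitochondria-encoded mRNAs. Here each annotated reading frame is counted as an mRNA, so both frames of a bicistronic mRNA are separate rows of the 13. A count of such a row is not the level of a separate molecule. All mice were wildtype C57BL/6N, and both groups differ by label in age alone, with 4 libraries each. The sex is stated as female for the 12 W cohort and is not given for the 65 W cohort. RNA came from isolated mitochondria that had been treated with a nuclease and purified on a sucrose gradient. It was primed with poly dT, amplified by PCR with barcodes and sequenced as 8 pooled Nanopore cDNA libraries. The labels number the libraries as biological replicates, and nothing used here ties a library to a single mouse.

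The pair was singled out with the age comparison of Nd4l already known, on the values of Nd4l relative to Nd4 and to the other mitochondria-encoded mRNAs. Differences of Nd4l and Nd4 between the age groups are therefore given as descriptions with their standard errors, without a test. Tests are given only for other mRNAs. These also belong to the sum to which Nd4l was related when the pair was chosen, so their tests are not independent of that choice.

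Mitochondrial DNA is transcribed as long precursors from both strands. The tRNAs that lie between the coding sequences are cut out, and the mRNAs released in this way receive short poly(A) tails. In mammals most of these mRNAs carry a single reading frame, while Nd4l with Nd4 and Atp8 with Atp6 each remain together on an mRNA with overlapping frames. ND4L and ND4 are hydrophobic subunits in the membrane arm of complex I (NADH dehydrogenase), where they take part in proton pumping. ATP8 and ATP6 belong to the membrane part of the ATP synthase.

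In the annotation of the mouse genome GRCm38, Nd4l covers chrM:9877-10173 and Nd4 covers chrM:10167-11544, both on the plus strand as single exons. The frames share 7 nt, from 10167 to 10173, and together span 1668 nt. The Nd4 start codon begins at position 291 of Nd4l and lies 2 nt out of the Nd4l frame, so that the stop codon of Nd4l falls inside the first bases of Nd4. A single base separates Nd4l from the tRNA-Arg gene before it, and a single base separates Nd4 from the tRNA-His gene behind it. The next mRNAs on this strand are Nd3, which ends before tRNA-Arg, and Nd5, which follows behind further tRNA genes. The sequences of both junctions are shown because they determine which bases of a read belong to both members. Capitals mark the shared bases.
Nd4l/Nd4 (chrM:10127-10213, plus strand): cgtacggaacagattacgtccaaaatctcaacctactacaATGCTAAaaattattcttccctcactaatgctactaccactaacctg
Atp8/Atp6 (chrM:7887-8009, plus strand): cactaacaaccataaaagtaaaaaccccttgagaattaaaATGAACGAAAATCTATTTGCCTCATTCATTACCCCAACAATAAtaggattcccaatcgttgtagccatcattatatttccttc
The overlap of Atp8 and Atp6 has 43 nt, against the 7 nt of Nd4l and Nd4. In both pairs the capitals open with the ATG of the downstream frame and close with the TAA of the upstream frame.

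The whole reading frame of Nd4l, the short member, is shown with the bases that it shares with Nd4 in capitals.
Nd4l (chrM:9877-10173, plus strand): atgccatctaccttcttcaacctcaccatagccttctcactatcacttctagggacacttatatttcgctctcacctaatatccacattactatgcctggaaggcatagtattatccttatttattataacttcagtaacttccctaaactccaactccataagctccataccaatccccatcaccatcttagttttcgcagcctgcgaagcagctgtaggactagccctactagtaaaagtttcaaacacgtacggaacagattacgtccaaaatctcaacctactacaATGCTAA
Nd4l is 297 nt long and holds 99 codons including the stop. Nd4 is 1378 nt long, which is 459 codons and 1 further base, the T that is printed as a capital below. Such an incomplete stop codon is completed by the poly(A) tail of the mRNA.
Nd4 3′ end (chrM:11485-11544, plus strand): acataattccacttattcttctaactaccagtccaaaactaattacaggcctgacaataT

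Since the libraries were primed with poly dT, stretches of A inside the mRNA were searched. The motif was AAAAAA, that is 6 or more A, on the coding strand, with no base counted in more than one stretch. Nd4 holds 2 such stretches of 7 A each, starting at its positions 61 and 252, at 10227 to 10233 and at 10418 to 10424 of the chromosome. Nd4l holds none, and its longest stretch has 4 A. Of the 13 mRNAs, 5 hold such a stretch, and the longest stretch per mRNA ranges from 3 to 8 A. Both tRNA genes next to the pair hold 1, with 8 A in tRNA-Arg and 6 A in tRNA-His. The capitals mark the stretches.
Nd4 first stretch (chrM:10207-10253, plus strand): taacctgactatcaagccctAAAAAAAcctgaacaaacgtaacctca
Nd4 second stretch (chrM:10398-10444, plus strand): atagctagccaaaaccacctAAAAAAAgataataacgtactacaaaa
tRNA-Arg (chrM:9808-9875, plus strand): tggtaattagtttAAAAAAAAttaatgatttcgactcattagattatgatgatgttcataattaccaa
tRNA-His (chrM:11546-11612, plus strand): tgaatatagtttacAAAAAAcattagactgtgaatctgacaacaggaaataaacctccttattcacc
A stretch is a property of the sequence alone, and where reads began or ended was not analysed here. The members also differ in base composition. Nd4l has 41.1% G and C, the highest value of the 13 mRNAs, and Nd4 has 35.6%, while the other 11 lie between 31.9 and 39.9%.

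**Figure D1:**
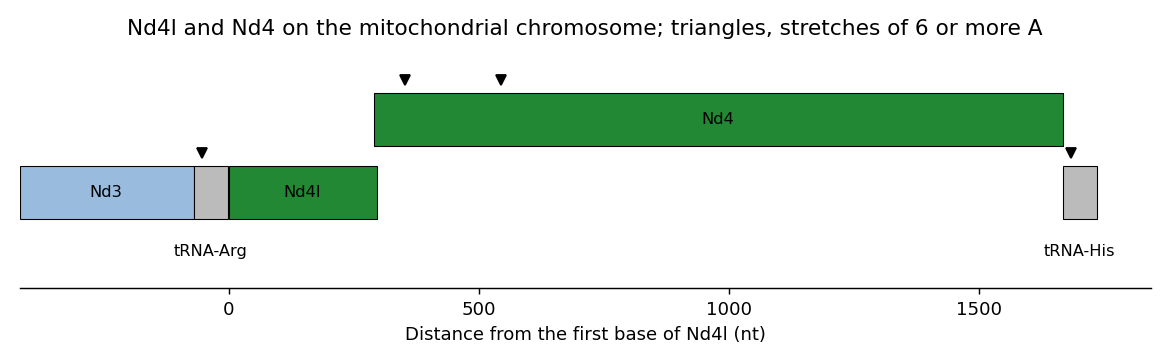
Map of the region, with the distance in nt from the first base of Nd4l on the x axis, and with Nd4 drawn on a separate level because it overlaps Nd4l. Boxes are genes to scale and triangles mark stretches of 6 or more A, of which Nd4 holds 2, both near its 5′ end, and Nd4l none.

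Total counts were 104554 to 191092 per library at 12 W and 12630 to 105252 at 65 W, where 65W-1 (12630) and 65W-3 (22651) were the shallow libraries. Over the 13 mRNAs, libraries of the same age always differed by more than sampling noise. The 13 mRNAs took 78.4% ± 1.43 of all counts at 12 W and 79.0% ± 3.49 at 65 W (SD, n = 4 each). A list of 12 hepatocyte markers took 1.27 to 2.27% of the counts at 12 W and 1.02 to 1.83% at 65 W, with all 12 detected and Alb, the serum albumin gene, the most abundant. Lists of Kupffer cell, endothelial, stellate cell, cholangiocyte and blood or immune markers each took at most 0.0277% in any library. Over all libraries, none of the markers was at 0 in the Kupffer cell and stellate cell lists, and 1 of 6 endothelial, 3 of 5 cholangiocyte and 4 of 10 blood and immune markers were. The table used here holds no row for either mitochondrial rRNA, so the members are related to the summed counts of the 13 mRNAs. As the libraries were made from purified mitochondria, the marker shares do not give the cell composition of the liver. In such data fewer cells of a type, less RNA per cell and less carry-over of RNA from outside mitochondria cannot be told apart.

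Nd4 was the most abundant of the 13 mRNAs by count in all 8 libraries. It had 47049, 27047, 37376 and 35831 counts in libraries 12W-1 through 12W-4 and 3033, 26409, 5285 and 32819 in 65W-1 to 65W-4. Nd4l was the least abundant by count in all 8, with 381, 210, 269 and 307 counts at 12 W and 52, 201, 72 and 326 at 65 W. The members of this mRNA thus stood at opposite ends of the count order in every library. Counting error alone gives Nd4l a relative error (coefficient of variation) of 5.12 to 6.90% at 12 W, and of 13.9% in 65W-1 and 11.8% in 65W-3. The sources used here mention no molecular identifiers for the PCR reads. This figure and all intervals from counts cover counting error only.

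Per length the order changed at both ends. On the scale of counts per kb, set to a sum of 1000000 over the 13 mRNAs, Nd4 reached 172140 ± 5799 at 12 W and 186179 ± 24228 at 65 W (SD, n = 4 each). It was second to Atp8 in each library. On the same scale Nd4l had 6310 ± 399 at 12 W and 10091 ± 2272 at 65 W (SD, n = 4 each). It stood at rank 12 or 13 of 13, next to Nd5 with 6007 ± 566 at 12 W and 6185 ± 499 at 65 W, the longest of the 13 mRNAs. At 12 W the levels per kb of Nd4l and Nd5 lay within their spread, and at 65 W all 4 libraries had Nd4l above Nd5. Nd4 exceeded Nd4l per kb by 25.2 to 29.9 times at 12 W and by 12.6, 28.3, 15.8 and 21.7 times in 65W-1 to 65W-4. Without division by length, the factor was 117 to 139 at 12 W and 58.3, 131, 73.4 and 101 in 65W-1 to 65W-4. Whether the counts of these cDNA reads scale with the length of an mRNA was not tested. The order and the factors per kb depend on that division. How the counting assigned a read that covers both frames is not given in the sources used here.

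**Figure D2:**
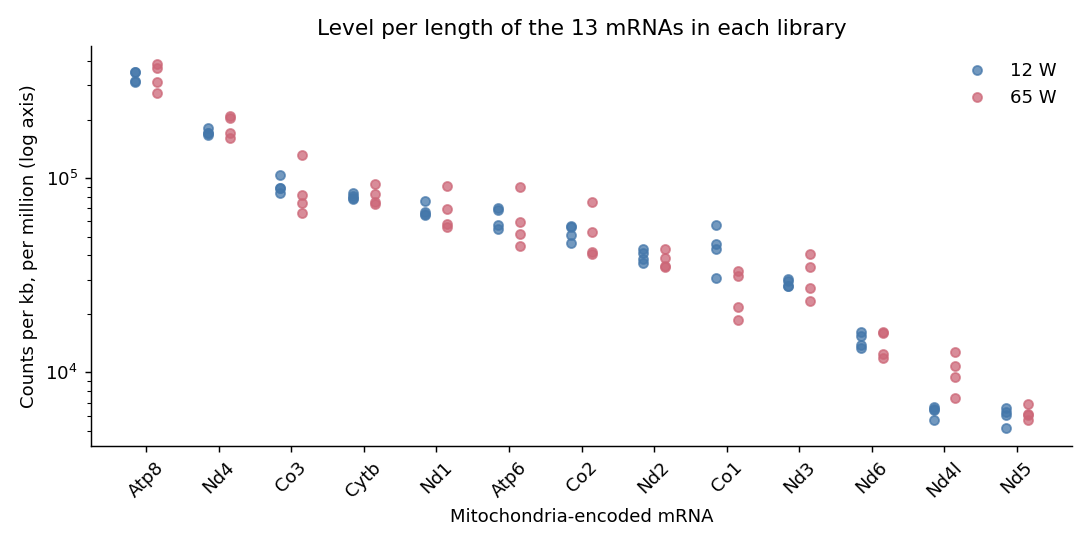
Counts per kb of annotated length for each of the 13 mitochondria-encoded mRNAs on the y axis (set to a sum of 1000000, log axis). Each point is a library, with the age groups in blue (12 W) and red (65 W). Nd4 is second in every library, and Nd4l lies at 5723 to 6607 at 12 W and at 7380 to 12780 at 65 W.

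Nd4l made up a larger part of the 13 mRNAs in each 65 W library than in any 12 W library. Its share of their counts was 0.254, 0.250, 0.232 and 0.259% in 12W-1 to 12W-4, and 0.532, 0.284, 0.425 and 0.381% in 65W-1 to 65W-4. The 12 W libraries lay close together, and the 65 W libraries were spread, with 65W-2 just above the highest 12 W library. The means were 0.249% ± 0.0116 at 12 W and 0.406% ± 0.103 at 65 W (SD, n = 4 each), a difference of 0.67 on the log2 scale (standard error 0.19). The 95% Wilson interval of 65W-2, 0.247 to 0.326%, overlapped those of all 12 W libraries, of which 12W-4 reached 0.290%. The interval of 65W-1 was the widest, from 0.406 to 0.697%. At the mean share of the 12 W libraries, Nd4l would have had 24.3, 176, 42.2 and 213 counts in 65W-1 to 65W-4, against the 52, 201, 72 and 326 found. Without both shallow libraries, the difference was 0.40 (standard error 0.22). Of the 132 transcripts kept by the filter on low counts, 1.52% had groups that did not overlap with all 65 W libraries higher on this scale, and of the 13 mRNAs 7.69%, which is Nd4l itself. In either direction 3.03% of the 132 did not overlap. No support is drawn from these counts, since Nd4l was chosen on this contrast.

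Nd4 held close to a constant share of the 13 mRNAs at 12 W, with 31.3, 32.2, 32.3 and 30.3% in 12W-1 to 12W-4. At 65 W it had 31.0, 37.3, 31.2 and 38.4%. The shallow libraries 65W-1 and 65W-3 lay within the 12 W range, and 65W-2 and 65W-4 lay above it. The means were 31.5% ± 0.954 and 34.5% ± 3.92 (SD, n = 4 each), a difference of 0.12 on the log2 scale (standard error 0.08). Here 95% Wilson intervals were narrow, 30.1 to 32.0% in 65W-1 and 38.1 to 38.7% in 65W-4. The difference was 0.26 (standard error 0.03) without both shallow libraries and 0.07 without 65W-4. Co1, a subunit of complex IV, had 9.06% ± 2.16 at 12 W and 5.46% ± 1.53 at 65 W (SD, n = 4 each). With Co1 left out of the denominator, the difference in Nd4 was also 0.07 (standard error 0.08). The pair took 31.8% ± 0.945 of the 13 mRNAs at 12 W and 34.9% ± 3.84 at 65 W, nearly all of it through Nd4.

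**Figure D3:**
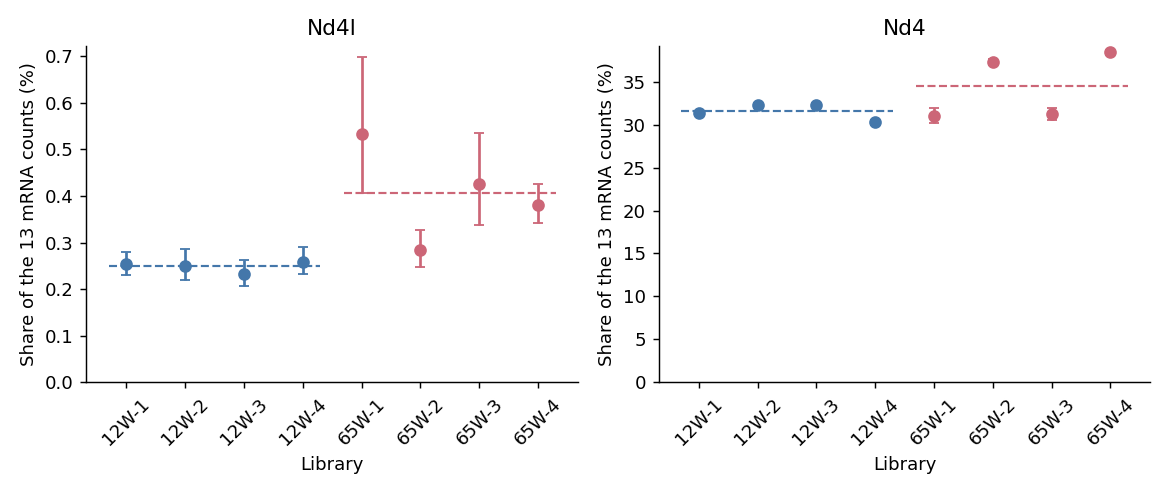
Share of Nd4l (left) and Nd4 (right) among the counts of the 13 mitochondria-encoded mRNAs in each library (y axis, %), with 95% Wilson intervals and dashed lines at the group means. Nd4l has 0.232 to 0.259% at 12 W and 0.284 to 0.532% at 65 W, while Nd4 exceeds the 12 W range in 65W-2 and 65W-4.

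The ratio within the pair overlapped between the age groups. For every 1000 counts of Nd4 there were 8.10, 7.76, 7.20 and 8.57 counts of Nd4l in 12W-1 to 12W-4. In 65W-1 to 65W-4 there were 17.1, 7.61, 13.6 and 9.93. Thus 65W-2 fell inside the 12 W range, 65W-4 lay above it, and the shallow libraries 65W-1 and 65W-3 were the highest of all 8. The means were 7.91 ± 0.577 and 12.1 ± 4.19 (SD, n = 4 each), a difference of 0.55 on the log2 scale (standard error 0.26). Without 65W-1 it was 0.36 (standard error 0.25), and without both shallow libraries it was 0.14 (standard error 0.20). With the counts of each group summed, which weights the deep libraries, it was 0.28. As a percentage of the counts of the pair, Nd4l had 1.69% in 65W-1 (95% Wilson interval 1.29 to 2.20%) and 1.34% in 65W-3 (1.07 to 1.69%). The 12 W libraries had 0.715 to 0.850%. The intervals cover counting error only, and libraries of the same age differed by more than that, so no comparison of the age groups is drawn from them. Depth moved with the ratio within the 65 W group, where the shallow libraries had the higher ratios, and its part in the result was not tested.

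**Figure D4:**
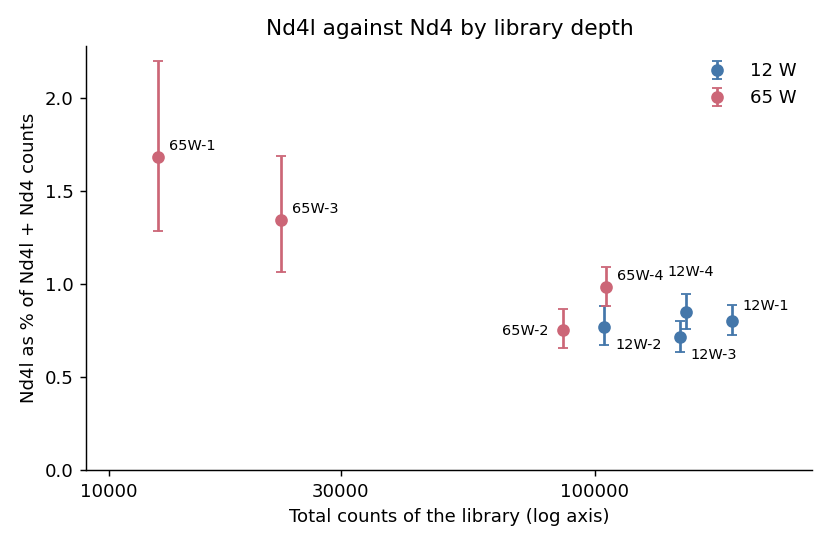
Nd4l as a percentage of the summed counts of Nd4l and Nd4 (y axis) against the total counts of the library (x axis, log axis), with 95% Wilson intervals and the libraries named. The 65 W libraries with 12630 and 22651 counts stand at 1.69 and 1.34%, and the other 6 lie between 0.715 and 0.984%.

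The 65 W libraries thus held different combinations. In 65W-1 and 65W-3 the share of Nd4l was on average 0.478% with Nd4 at 31.1%. In 65W-2 and 65W-4 the share of Nd4l was on average 0.333% with Nd4 at 37.8%. The 12 W means were 0.249% and 31.5%. With 2 libraries of each kind, no comparison between them was made.

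The ratios to single mRNAs, which belong to the values that chose the pair and share Nd4l as numerator, are given as a description. Nd4l was higher at 65 W relative to each of the other 12 mRNAs, by 0.55 (Nd4) to 1.41 (Co1) on the log2 scale. The ratio to Nd3, the nearest mRNA before the pair, was 198, 186, 162 and 203 counts of Nd4l per 1000 of Nd3 in 12W-1 to 12W-4, and 468, 181, 227 and 296 in 65W-1 to 65W-4. Again 65W-2 lay within the 12 W range. Nd4 was higher at 65 W on average relative to 11 of the 12 others, Nd4l being the exception. These ratios share Nd4 as numerator, and the age groups overlapped in each of them. Of the 11 log2 differences, those to Co1 (0.87, standard error 0.31), Nd2 (0.18, 0.10) and Nd6 (0.17, 0.16) were larger than their standard error. The others were smaller than theirs, down to 0.01 (0.19) for Nd3. For each count of Nd3, which encodes a further subunit of the membrane arm, there were 22.5 to 24.4 counts of Nd4 at 12 W and 27.3, 23.8, 16.7 and 29.8 in 65W-1 to 65W-4. For each count of Nd5 there were 20.7 to 24.1 at 12 W and 17.6, 25.8, 22.6 and 25.6 at 65 W. The 65 W libraries lay on both sides of the 12 W range for both neighbours.

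The other bicistronic mRNA was compared in the same libraries. Its short member Atp8, unlike Nd4l, had more counts than its long partner in 7 of the 8 libraries. There were 1.92, 1.37, 1.85 and 1.36 counts of Atp8 for each count of Atp6 in 12W-1 to 12W-4, and 2.58, 1.58, 0.912 and 2.14 in 65W-1 to 65W-4. Library 65W-1 was the highest for both bicistronic mRNAs, whereas 65W-3 was the lowest for Atp8 to Atp6 and the second highest for Nd4l to Nd4. The means of Atp8 to Atp6 were 1.63 ± 0.303 and 1.80 ± 0.721 (SD, n = 4 each). The log2 difference of 0.07 (standard error 0.35) was within the spread between libraries (two-sided exact permutation test, p = 0.857, where the smallest p that 4 against 4 libraries allow is 0.0286). Its direction turned when 12W-2, 12W-4, 65W-1 or 65W-4 was left out, with values down to -0.14 without 65W-1, and it was 0.36 without 65W-3. The values of Atp8 to Atp6 stand beside those of Nd4l to Nd4, and a difference between both pairs in their change with age was not tested.

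**Figure D5:**
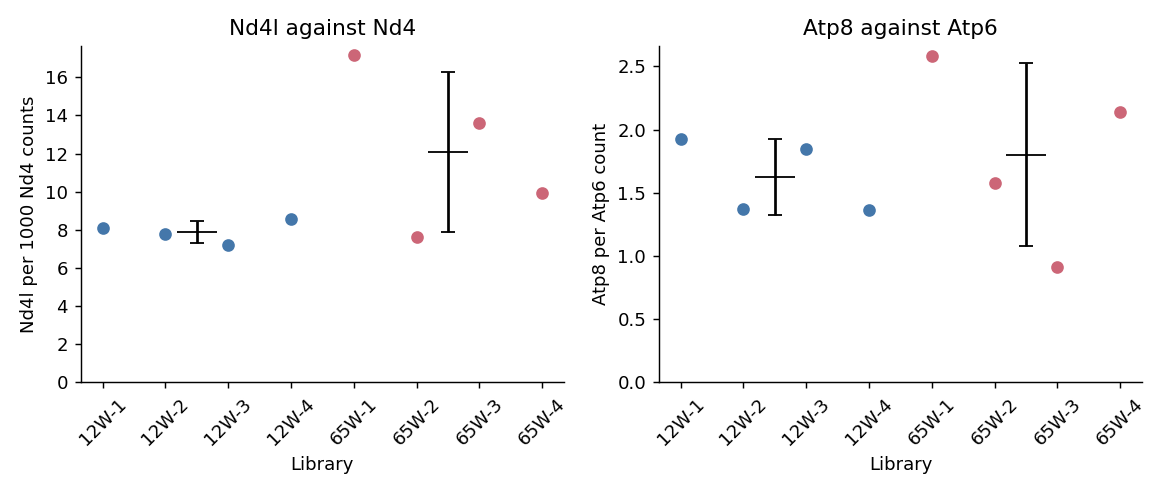
Counts of Nd4l per 1000 counts of Nd4 (left) and counts of Atp8 per count of Atp6 (right) in each library, with black bars at the group mean ± SD (n = 4). Nd4l to Nd4 is 7.20 to 8.57 at 12 W and 7.61 to 17.1 at 65 W, and Atp8 to Atp6 is 1.36 to 1.92 at 12 W and 0.912 to 2.58 at 65 W.

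Both members have a copy in the nuclear genome to which their reads could also have been counted. On the minus strand of chromosome 1, Gm10222 (chr1:24612407-24612700, ENSMUST00000088336.2) is identical to the first 294 nt of Nd4l, and Gm28439 (chr1:24611535-24612410, ENSMUST00000187714.1) is identical to the first 876 nt of Nd4. These rows overlap by 4 nt, in the same order as the mitochondrial genes. Gm10222 had 42, 19, 45 and 36 counts at 12 W and 0, 20, 4 and 25 at 65 W. This was 8.30 to 14.3% of the summed counts of Nd4l and Gm10222 at 12 W and 0 to 9.05% at 65 W. The 0 of 65W-1 allows a share of up to 5.77% of its 52 counts. Gm28439 had 5 to 64 counts per library, at most 0.236% of the summed counts of Nd4 and its copy. The copy thus bears on Nd4l far more than on Nd4. With each member summed with its copy, there were 8.98, 8.45, 8.39 and 9.56 counts of Nd4l per 1000 of Nd4 in 12W-1 to 12W-4. In 65W-1 to 65W-4 there were 17.1, 8.36, 14.4 and 10.7. The difference was then 0.46 on the log2 scale (standard error 0.23), with 65W-2 below all 12 W libraries. Copies of Nd3 and Atp6 lie in the same part of chromosome 1. The copy of Nd3, Gm28438, held 30.9 to 42.1% of the summed counts of Nd3 and the copy, a larger part than in Nd4l. With the copies added to both sides, the counts of Nd4 per count of Nd3 were 13.4 to 15.1 at 12 W and 17.5, 13.8, 11.5 and 18.0 in 65W-1 to 65W-4. Those of Nd4l per 1000 of Nd3 were 113 to 142 at 12 W and 299, 115, 166 and 193 at 65 W. The levels were thus lower than without the copies, and 65W-2 again lay within the 12 W range for both ratios. The copy of Atp6, Gm10925, held 6.90 to 11.2%, and with it the difference in Atp8 to Atp6 stayed at 0.07 (two-sided exact permutation test, p = 0.857). In all, 17 nuclear rows resembled a mitochondrial transcript, and they held 8.12 to 12.8% of the counts of a library. Most of these counts were not from copies of mRNAs. Gm20594, which resembled the rRNA Rnr2 (88.5% identity over 435 nt), had 59284 counts over all 8 libraries. The next row, the Co3 copy Gm28437, had 11939. All 17 rows, Gm20594 included, were added where a share was computed with look-alikes in its denominator.

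Complex I is built from the 7 mitochondria-encoded ND subunits and a larger number of nuclear-encoded ones. The 7 ND mRNAs together took 49.8% ± 1.66 of the counts of the 13 mRNAs at 12 W and 53.0% ± 3.36 at 65 W (SD, n = 4 each). Nd4 alone was 62.3 to 64.1% of the ND counts at 12 W and 58.5, 66.6, 64.5 and 70.2% in 65W-1 to 65W-4. In edgeR's quasi-likelihood test over the 132 transcripts kept, 1.52% were called at an adjusted p under 0.05. Of the 5 other ND mRNAs, 0 were called, and 0 had an unadjusted p under 0.05 in edgeR. DESeq2 also called 0 of them. Their log2 fold changes were -0.09 (Nd2, standard error 0.28), -0.06 (Nd6, 0.33), 0.01 (Nd5, 0.30), 0.02 (Nd1, 0.30) and 0.07 (Nd3, 0.28), with adjusted p-values from 0.915 to 0.998 in edgeR. Nd1 and Nd3 encode membrane arm subunits next to the quinone site, and Nd2 and Nd5 encode antiporter-like subunits related to ND4. Nd6 is the only mRNA of the 13 on the minus strand. On the log2 scale of the same fit, Nd4l differed by 0.62 (standard error 0.29), or by 0.05 without the filter on low counts. Nd4 differed by 0.10 (standard error 0.28), turning to -0.36 without that filter and to -0.07 without 65W-2, and reaching 0.64 without both shallow libraries. The median over the same 132 transcripts was -0.15 in the fit of all libraries, -0.62 without the filter, -0.10 without 65W-2 and 0.11 without both shallow libraries. Relative to this median Nd4 was higher in each of these 4 fits, which share libraries. Among these 4 fits, only without both shallow libraries was the distance larger than the standard error of Nd4 (0.43). Without 65W-2 the distance was far smaller than that standard error (0.30). In some other fits it was also larger, such as without 65W-3 (Nd4 0.27, standard error 0.25, median -0.13). In others it was smaller, such as in DESeq2 (Nd4 0.15, standard error 0.31, median -0.10).

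Nuclear-encoded partners of the pair were at the limit of detection. Of 37 nuclear complex I subunits, 35 had at least 1 row, with 2 to 89 counts per library for the whole list, and none of their 61 transcripts passed the filter on low counts. The most abundant were Ndufa6, Ndufa13 and Ndufa3, accessory subunits, with 30, 25 and 25 counts over all 8 libraries. Of 18 complex I assembly genes, 10 had a row and 14 counts in all, of which Ndufaf3, Ndufaf4 and Ndufaf6 had 2 each. A list of 26 genes for mitochondrial transcription, RNA processing and RNA decay had 10 with a row and 21 counts in all. Among them Slirp, which with Lrpprc stabilises mitochondrial mRNAs, and Hsd17b10, a part of the mitochondrial RNase P, had 5 counts each and Fastk had 2. With these counts the age groups were not compared for these lists.

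Across the 8 libraries, the profile of Nd4 was closest to those of other mitochondria-encoded mRNAs. The measure was the root-mean-square difference of log2 CPM (counts scaled to a common library size), centred per transcript, over 8 libraries and 131 transcripts, with a median of 0.731 for Nd4. The smallest differences were to Cytb (0.148), Nd2 (0.153) and Nd5 (0.172), while Nd4l stood at rank 18 with 0.420. For Nd4l the closest were Apoa1, which encodes the main apolipoprotein of HDL (0.332), Rps29, which encodes a cytosolic ribosomal protein (0.359), and Nd5 (0.371), with a median of 0.750. Nd4 was at rank 8 from Nd4l. Nd4l was thus farther from its nearest profile than Nd4 was from its own, and Nd4l has far fewer counts and a larger counting error.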

How the data were processed

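The authors deposited raw read counts per Ensembl transcript for 8 libraries of liver mitochondria, which came from Nanopore cDNA reads through the differential expression workflow of Epi2Me Labs, without normalization or pooling. The submitters' processing notes name minimap2, SAMtools, edgeR and the build GRCm38 (mm10), and the counting tool and the annotation release are not given in the sources used here. Age group and replicate number of a library were taken from its title.

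Of 8688 transcripts, 8591 were matched by identifier to GENCODE M21 on GRCm38. The table used here has no rows for the mitochondrial rRNAs, so the normalization to Rnr2 in the study's methods could not be followed. Shares of the 13 mitochondria-encoded mRNA counts and ratios were computed within each library, with 95% Wilson intervals (scipy 1.17.1), and age differences as differences of group means on the log2 scale. Over the whole table, edgeR 4.0.16 (R 4.3.3) was run with TMM and filterByExpr, which kept 132 transcripts, and Benjamini-Hochberg adjustment with a threshold of 0.05. The standard errors given for edgeR were derived, as the absolute log2 fold change divided by the square root of the quasi-likelihood F statistic. The fit was tested on simulated counts. Atp8 to Atp6 was compared by a two-sided exact permutation test over 70 assignments. With the replicate block, the signs of the 4 differences between same-numbered libraries were flipped in all combinations instead. Alternatives were RLE size factors, the 12 mRNAs other than Co1 as library size, no filter, DESeq2 1.42.0, a replicate block, 0.5 added to the counts, other denominators, summed counts and left-out libraries. Nuclear look-alikes were found with BLAST 2.17.0, with at least 100 nt at 80% identity. Promoters were not used, and protein sequences were not analysed here.

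The members and gene lists were chosen with earlier results of these data known. Beside the members, the named genes are the other mitochondria-encoded mRNAs, the 3 most abundant of each list other than markers, the nuclear copies of Nd4l and Nd4, and the 3 nearest profiles of each member. Ties in counts within a list were settled by the alphabetical order of gene names. Further genes of the assembly and RNA lists had the same 2 counts as the last ones named. Alb was named after its values were seen. P-values set an age difference against the spread between these libraries, which nothing used here ties to single mice.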

Additional observations from a re-analysis of the deposited data

Results flagged for a closer look

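A single library lay far from the other 3 of its group in 1 of the 18 groups of 4 values examined, where chance gives about 1 in 20. This was the nuclear copy of Nd4, Gm28439, in 12W-2, with 0.236% of the summed counts of Nd4 and the copy, while the other 12 W libraries had 0.0871 to 0.102%. It rests on 64 counts of Gm28439 in 12W-2, against 34 to 41 in the other 12 W libraries. No value of Nd4l, Nd4 or their ratio stood apart from its group in this way.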

How the results depend on the processing

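The difference in the share of Nd4l stayed within 1 SD of the spread between libraries of its value of 0.67 under all 15 alternatives, from 0.40 without both shallow 65 W libraries, and from 0.53 to 0.83 with a single library left out. The ratio of Nd4l to Nd4 had 0.14 without both shallow libraries, 0.36 to 0.75 with a single library left out, and stayed within 1 SD of 0.55 under the other 13 alternatives. The share of Nd4 had 0.26 without both shallow libraries and 0.07 to 0.17 with a single library left out, and kept its direction under all 15. Adding the nuclear copies to both members or to Atp6, and leaving out both shallow libraries over the whole table, were chosen after seeing the data. The ratio of Atp8 to Atp6 was -0.01 without 12W-2, -0.01 without 12W-4, -0.14 without 65W-1, -0.05 without 65W-4 and at most 0.36, with exact permutation p-values of at least 0.20 with a single library left out. Over the whole table, the 2 calls of edgeR became 0 with the 12 mRNAs as library size (10 at an unadjusted p under 0.05), 7 with DESeq2, 4 without both shallow libraries and 1 to 7 when each library was dropped in turn (the highest without 12W-2 and the lowest without 12W-3), and the cause was not tested. None of the 5 other ND mRNAs was called in any of these fits. In edgeR without a filter, where the median of the 132 transcripts was -0.62 in place of -0.15, Nd4l had 0.05 and Nd4 had -0.36. Nd4 was also lower without 65W-2, at -0.07. Replicate numbers did not pair the libraries: deviations of same-numbered libraries correlated at 0.70, 0.36, 0.05 and -0.23 over the 13 mRNAs, and not every library correlated best with its own number. With the replicate block, edgeR made 3 calls in place of 2, and the difference in Nd4l to Nd4 stayed at 0.55 (standard error 0.27). The share of Nd4l stayed at 0.67 (0.19), the share of Nd4 at 0.12 (0.09) and Atp8 to Atp6 at 0.07 (two-sided exact sign-flip test, p = 0.875). With 4 same-numbered differences, a sign-flip test cannot reach 0.05. Depth limits Nd4l most in 65W-1, with 52 counts.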
